A study of Bos taurus with 6 samples.

Results

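Solute carriers are membrane proteins that move sugars, amino acids, organic acids, vitamins, lipid precursors, ions and metals across the plasma membrane and the membranes of organelles. Some exchange one solute for another, and others use the gradient of sodium or protons to pull a nutrient in. In the blastocyst the outer epithelium, the trophectoderm, takes up nutrients for the whole embryo and moves ions to fill the cavity, so these genes set much of what an embryo can draw from its culture medium.

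The genes described here are the solute carriers for nutrients and ions of bovine (Bos taurus) blastocysts at day 7, chosen by name. They are the genes whose symbol begins with SLC, a number and the letter A, or with SLCO. Mitochondrial carriers (40 SLC25A genes) and 5 single genes (SLC16A1, SLC16A7, SLC7A5, SLC7A11 and SLC29A1) were left out of the 205 matching names, and 22 further SLC names with another letter, such as the nucleotide sugar carriers SLC35B to SLC35G, do not match. This gave 160 members of the 12826 genes of the count table. Of these, 159 passed the filter on low counts; the nucleoside carrier SLC28A1, with 5, 6 and 18 counts in BHB and 6, 10 and 16 counts in control libraries, did not. The members SLC9A3R1 (a scaffold protein that anchors carriers), SLC4A1AP (a nuclear protein named for a carrier it was found with) and SLC7A6OS (a gene named for the strand opposite SLC7A6) are no carriers and match by name alone. The sources used here do not say whether counting used strand, so SLC7A6 and SLC7A6OS may share reads, and so may other overlapping genes.

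The embryos were produced in vitro from slaughterhouse material and cultured with beta-hydroxybutyrate (BHB), a ketone body (3 libraries), or without it (3 control libraries). Embryos were pooled for each library; the sources used here state neither the dose and duration of BHB nor the pool size. Whether the pools are independent is not stated either, so a p-value speaks only of the spread between these libraries, which may be technical. In a pool, fewer cells of a type and less RNA per cell cannot be told apart.

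Totals were 6440732 to 7348949 counts in BHB libraries and 7925889 to 8176648 in control libraries, and the members took 1.15% to 1.30% of the counts with BHB and 1.12% to 1.31% in controls. The authors' deposited p-values are given by a model in which BHB 1 is paired with control 1, BHB 2 with control 2 and BHB 3 with control 3, and in the members 56.8% of the variation in log2 CPM lay between pairs and 19.3% between treatments, beside 57.5% and 16.6% over all tested genes. Of the 5 degrees of freedom among 6 libraries, 2 belong to pair and 1 to treatment. A larger share for pair than for treatment is therefore the average outcome even where nothing differs. Over all tested genes, deviations from group means correlated at 0.46, 0.32 and 0.33 within pairs and at -0.30 to -0.0040 across pairs. All 6 trophectoderm markers checked were present, as were NANOG and POU5F1 of the inner cell mass and GATA6 and PDGFRA of the primitive endoderm. SOX2 of the inner cell mass and SOX17 of the primitive endoderm were not among the genes of the table. GATA6 was at 100, 102 and 132 CPM with BHB, against 95.5, 92.4 and 117 CPM in controls (log2 fold change 0.13). PDGFRA was at 57.7, 106 and 82.1 CPM with BHB, against 40.7, 98.9 and 93.3 CPM in controls (0.08). NANOG was lower in all BHB libraries, at 30.7, 33.4 and 51.2 CPM, against 72.4, 60.7 and 73.4 CPM in controls (log2 fold change -0.84, unadjusted p = 0.00300 in edgeR, where 0 genes passed after adjustment), and POU5F1 was at 279, 323 and 268 CPM against 309, 289 and 279 CPM (-0.01). The part of the makeup of the pools in the carriers' levels was not tested. Markers of cumulus cells summed to 19.99 to 24.5 CPM with BHB and 19.8 to 26.8 CPM in controls (2 of 6 markers in the table), those of sperm to 4.29 to 5.398 and 2.12 to 6.46 CPM (2 of 3) and that of the oocyte to 0.94 to 2.77 and 0.40 to 2.65 CPM (1 of 4). No blood cell marker of 4 was in the table.

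Levels are given as CPM, counts normalised to a library size scaled by edgeR's TMM method, and compare a gene between libraries. They are not divided by gene length, so levels of different genes are not compared. Fold changes are log2 of BHB over control from edgeR with their standard error (SE), and adjusted p-values are Benjamini-Hochberg values over all 12732 tested genes.

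No solute carrier differed between BHB and control blastocysts in edgeR's test without pairing, in which 0% of all tested genes passed at 0.05 and the adjusted p of the members printed here was 0.999. At an unadjusted p under 0.05 there were 7 members (4.4%), 2 higher and 5 lower with BHB, against 2.73% of all tested genes (1.46% higher and 1.26% lower). DESeq2's Wald test and limma-voom without pairing also called 0 members; across all genes DESeq2 called 6 (0.0468%) and limma-voom 0. The median log2 fold change of the 159 members was -0.07, beside 0.00 for all tested genes (-0.0050), and 95 members were negative and 64 positive, beside 49.1% of all tested genes positive. With library totals alone as the scale the split was 80 negative and 79 positive, and the median of all genes was 0.06. The SE of a member's fold change had a median of 0.29 and quartiles of 0.21 and 0.44. In 94 members the 95% interval of the log2 fold change lay between -1 and 1. Of the members 5 (SLC16A12, SLC16A9, SLC6A19, SLC36A4 and SLC13A2) had a log2 fold change of 1 or more in size, which 1.85% of all tested genes had.

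**Figure D1:**
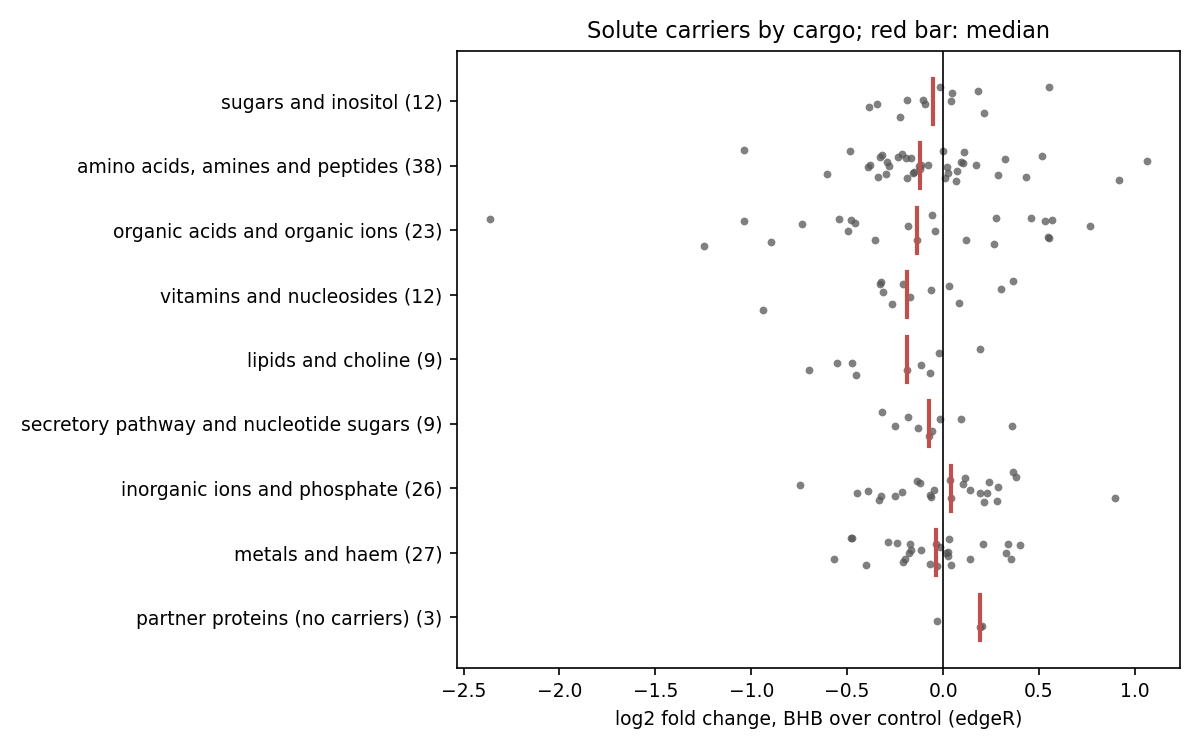
Log2 fold change of BHB over control for the 159 tested members, 1 point per gene, grouped by what the carrier moves (number of genes in parentheses, points spread vertically for visibility). The red bar is the median of the group; medians lie between -0.19 (vitamins and nucleosides, lipids and choline) and 0.04 (inorganic ions and phosphate) among the carriers, and SLC16A12 stands at -2.36.

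In 15 members (9.43%) the 3 BHB libraries did not overlap the 3 control libraries, 8 higher and 7 lower, beside 7.84% of all tested genes (4.06% higher and 3.78% lower). Among those higher with BHB in all 3 libraries were SLC12A8, SLC6A16, SLC7A9, SLC10A3, SLC39A6, SLC38A10 and SLC4A1AP. Lower were SLC16A12, SLC16A9, SLC17A5, SLC4A5, SLC36A4, SLC30A6 and SLC30A7. With 5 libraries more genes part by construction: without BHB library 1, 2 or 3 there were 38, 25 and 24 such members, and without control library 1, 2 or 3 there were 26, 23 and 44, beside 13.6% to 24% of all tested genes.

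Within the pairs, more of the carriers were lower with BHB than among genes at large. Of the 159 members 39 (24.5%) were lower with BHB in 3 of 3 pairs, beside 15.7% of all tested genes, and 17 (10.7%) were higher in 3 of 3 pairs, beside 14.5%; the same direction in 3 of 3 pairs was found in 30.3% of all tested genes. When edgeR's model included the pair, 15 members (9.43%) were lower at an unadjusted p under 0.05, beside 4.21% of all tested genes, and 6 (3.77%) were higher, beside 3.99% (8.2% in either direction); 0 passed after adjustment (0% of all genes). These shares describe the list and were not tested, since members share libraries and are not replicates. Direction in pairs was counted whatever the size of the difference, such as -0.0018 for SLC6A20 in pair 2. By cargo group or family it was counted with TMM alone. With library totals alone as the scale, 26 members (16.4%) were lower and 21 (13.2%) higher in 3 of 3 pairs, beside 10.1% and 21% of all tested genes. In pairs 2 and 3 alone 60 members were lower in both and 30 higher in both (37.7% and 18.9%, beside 27.6% and 26.8%). The same counts were 48 and 38 without pair 2 (30.2% and 23.9%, beside 25.6% and 24.8%), and 54 and 40 without pair 3 (34% and 25.2%, beside 27.4% and 28.3%). The list's median within pairs was 0.0046 in pair 1, -0.12 in pair 2 and -0.10 in pair 3, so pair 1 did not share the lower median.

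**Figure D2:**
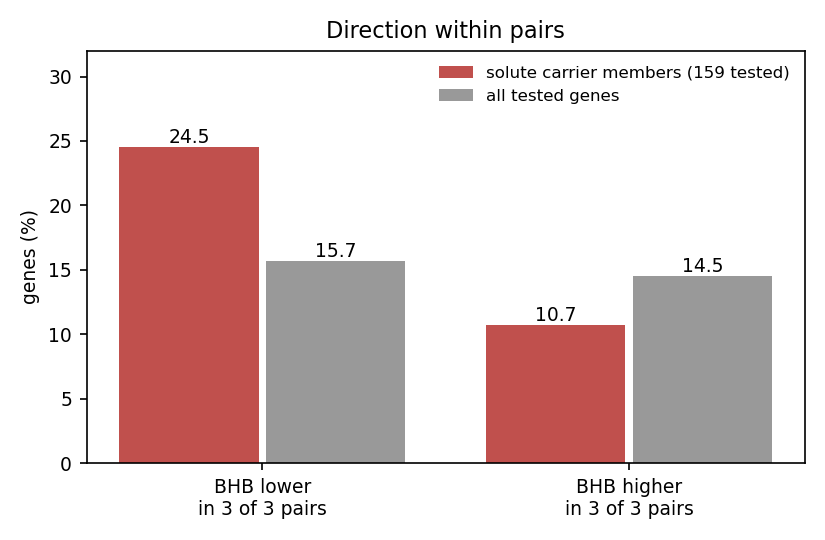
Percent of genes for which the BHB library was lower, or higher, than its paired control library in 3 of 3 pairs, for the 159 tested solute carrier members (red) and all 12732 tested genes (grey). Members were lower in 24.5% against 15.7% of all genes and higher in 10.7% against 14.5%.

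One member passed a test over all genes within pairs. SLC11A2 encodes DMT1, the proton-coupled importer of iron and other divalent metals that takes iron up at the gut surface and releases it from endosomes. It was at 320, 230 and 180 CPM in BHB libraries 1 to 3, against 412, 431 and 241 CPM in control libraries 1 to 3 (2375, 1662 and 1234 counts, against 3083, 3254 and 2055). Each BHB library was below its paired control, but the highest BHB library lay above the lowest control, so the groups overlapped. The difference within pairs was -0.36, -0.90 and -0.42 on the log2 scale. DESeq2's test with the pair in the model gave a log2 fold change of -0.57 (SE 0.14, adjusted p = 0.0219), where 0.339% of the 10339 genes with an adjusted p passed, and 1 of 121 members with one. edgeR's test with the pair gave -0.56 (SE 0.12) with an adjusted p of 0.255 and did not call it, and the test without pairs gave -0.57 (SE 0.26, adjusted p = 0.999). Left with 2 pairs, DESeq2 did not call it: the adjusted p was 0.0905 without pair 1, 0.999 without pair 2 and 0.170 without pair 3, with log2 fold changes of -0.67, -0.40 and -0.64. The 6 trophectoderm markers went different ways. The keratin gene KRT8 was lower with BHB in each pair and lowest in pair 3, at 9804, 8217 and 5706 CPM in BHB libraries, against 12283, 11329 and 7369 CPM in controls. KRT18 had the same order (log2 fold change -0.39 for KRT18 and -0.38 for KRT8). TFAP2C was higher with BHB in each pair, at 269, 268 and 297 CPM against 195, 172 and 277 CPM (0.37), and so was CDX2, at 9.83, 4.29 and 6.27 CPM against 6.81, 3.71 and 5.87 CPM (0.32). GATA3 and GATA2 had log2 fold changes of -0.02 and -0.17. The sum of the 6 markers, 8236 to 13367 CPM with BHB and 10468 to 17054 CPM in controls, is almost wholly that of the 2 keratins. The markers' part in the levels of SLC11A2 and of SLC23A1, SLC40A1 and SLC44A4, which had the same order within pairs and were lowest in pair 3, was not tested.

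**Figure D3:**
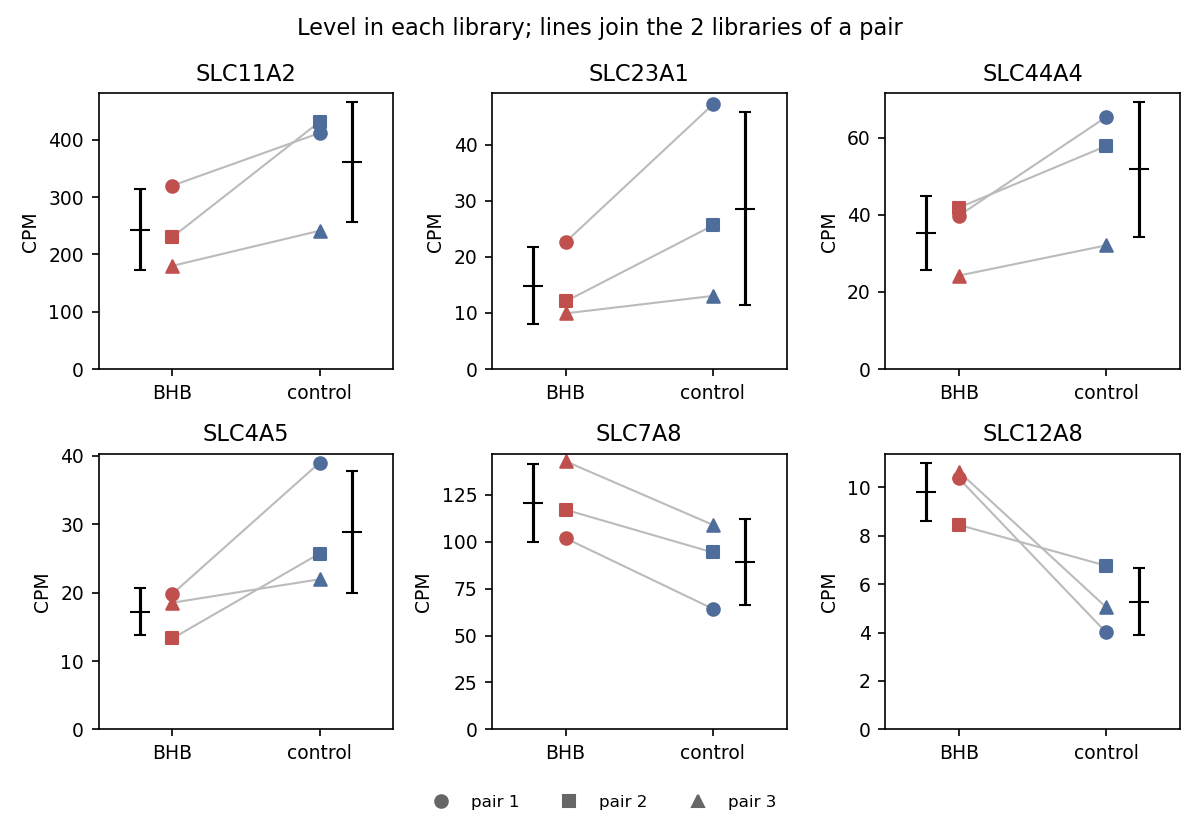
CPM of 6 members in each library, BHB on the left (red) and control on the right (blue), with the symbol marking the pair, a grey line joining the paired libraries and the black bar giving mean ± SD over 3 libraries. SLC11A2, SLC23A1, SLC44A4 and SLC4A5 are lower with BHB in each of the 3 pairs and SLC7A8 and SLC12A8 higher, while only SLC4A5 and SLC12A8 have groups that do not overlap.

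Other metal carriers went in both directions, and none passed a test of BHB against control. The 27 tested carriers of metals and haem had a median log2 fold change of -0.04. In 3 of 3 pairs 7 were lower and 2 higher, beside 15.7% and 14.5% of all tested genes. SLC40A1 encodes ferroportin, the exporter of iron from cells. It had 45.3, 32.8 and 22.5 CPM in BHB libraries, against 67.7, 37.5 and 35.2 CPM in control libraries (log2 fold change -0.48, SE 0.31; -0.11 without control library 1). Every BHB library was below its partner, and the groups overlapped. The SLC30A family holds exporters that move zinc out of the cytosol, a role not taken to hold for every member. Of its 7 tested genes 6 were negative with TMM, as with library totals alone. Log2 fold changes of the 7 ran from -0.47 to 0.21 with TMM, where 49.1% of all tested genes were positive. SLC30A6 and SLC30A7, which load zinc into the Golgi and secretory vesicles, averaged 74.1 ± 2.61 and 101 ± 3.05 CPM with BHB, against 87.6 ± 8.16 and 114 ± 10.2 CPM in controls (SD, n = 3 each). Their log2 fold changes were -0.24 (SE 0.13) and -0.17 (SE 0.13), with unadjusted p = 0.107 and 0.209 in edgeR without pairs. In SLC30A7 the highest BHB library (104.17 CPM) lay just below the lowest control (104.99 CPM). Zinc importers of the SLC39A family were split, with 6 of 11 positive (8 of 11 when scaled by library totals alone). SLC39A6 (ZIP6) was at 39.9, 38.5 and 46.5 CPM with BHB, against 27.1, 34.7 and 35.7 CPM in controls (log2 fold change 0.36, SE 0.18). SLC39A8 (ZIP8, an importer of zinc and manganese) and SLC30A1, the zinc exporter of the plasma membrane, had log2 fold changes of 0.03 (SE 0.25) and -0.20 (SE 0.34).

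Amino acid carriers, the largest group with 38 tested members, had a median log2 fold change of -0.12. In 3 of 3 pairs 10 were lower and 6 higher, beside 15.7% and 14.5% of all tested genes. SLC38A9 sits on the lysosome and reports its arginine to the growth kinase mTORC1. It was at 176, 173 and 150 CPM with BHB, against 227, 248 and 175 CPM in controls, lower in each pair (log2 fold change -0.38, SE 0.16, unadjusted p = 0.0384; with the pair in edgeR's model -0.37, unadjusted p = 0.00627, adjusted p = 0.431). The highest BHB library exceeded the lowest control by a narrow margin. SLC7A8 encodes LAT2, an exchanger of neutral amino acids that pairs with the heavy chain SLC3A2. Its level was 102, 117 and 143 CPM with BHB, against 64.3, 94.3 and 109 CPM in controls, higher in each pair by 0.66, 0.31 and 0.39 on the log2 scale (log2 fold change 0.43, SE 0.21; adjusted p = 0.371 with the pair in edgeR's model). SLC3A2 itself hardly differed, at 147, 164 and 138 CPM with BHB, against 146, 162 and 138 CPM in controls (log2 fold change 0.01, 95% interval -0.29 to 0.31).

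Glutamine and neutral amino acid importers went in different directions. SLC1A5 (ASCT2) averaged 41.7 ± 8.81 CPM with BHB and 34.1 ± 3.91 CPM in controls (log2 fold change 0.29, SE 0.20), and SLC38A2 (SNAT2, which adapts to amino acid supply) averaged 412 ± 77.3 and 459 ± 88.5 CPM (-0.16, SE 0.18; SD, n = 3 each). SLC7A1, an importer of arginine and lysine, gave a log2 fold change of -0.32 (SE 0.35), and SLC6A9, the glycine importer GLYT1, of -0.30 (SE 0.45). SLC38A10 was at 20.5, 18.8 and 18.1 CPM with BHB, against 14.6, 15.1 and 16.2 CPM in controls (0.32, SE 0.19).

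Several amino acid carriers with the widest fold changes rested on few reads. SLC6A19, the sodium-coupled importer of neutral amino acids of gut and kidney, had 29, 26 and 12 counts with BHB, against 12, 18 and 4 in controls (log2 fold change 1.06, SE 0.59), and the groups overlapped. SLC6A16, a family member with no established cargo, had 30, 29 and 21 counts against 17, 13 and 16 (0.92, SE 0.37). SLC36A4, an amino acid carrier of the PAT family, had 13, 15 and 3 counts against 17, 22 and 31 (-1.04, SE 0.55), with a range of -1.67 to -0.44 when 1 library or pair was left out, and SLC7A9, the light chain of the cystine carrier, 12, 17 and 18 against 11, 12 and 13 (0.52, SE 0.42).

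Carriers of organic acids and organic ions had the widest spread of any cargo group, with a median absolute log2 fold change of 0.49 in 23 genes, beside 0.16 for all tested genes, and a low median level (log2 CPM of 2.61, beside 4.31). Here 7 were lower and 2 higher in 3 of 3 pairs, beside 15.7% and 14.5% of all tested genes. SLC16A12 (MCT12, which carries creatine) had 1, 7 and 5 counts with BHB, against 25, 15 and 36 counts in controls, or 0.135, 0.969 and 0.729 CPM against 3.34, 1.99 and 4.23 CPM. All BHB libraries were below all controls, and the fold change was the largest of any member (log2 fold change -2.36, SE 0.63, unadjusted p = 0.00422, adjusted p = 0.999; adjusted p = 0.377 with the pair in edgeR's model). The related SLC16A9 (MCT9) had 6, 5 and 7 counts against 13, 12 and 23 (-1.25, SE 0.49), and SLC16A13 had 12, 12.5 and 7.29 CPM with BHB, against 17.4, 16.8 and 12.2 CPM in controls (-0.54, SE 0.27). SLC13A2, a carrier of citric acid cycle intermediates, averaged 1.70 ± 0.92 CPM with BHB and 3.53 ± 2.37 CPM in controls (-1.04, SE 0.61), and its log2 fold change was -0.37 without control library 1.

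Among better covered genes of this group, SLC17A5 encodes sialin, which exports sialic acid from lysosomes. It was at 37.6, 42.8 and 39.5 CPM with BHB, against 56.2, 60.1 and 48.4 CPM in controls, with no overlap (log2 fold change -0.46, SE 0.15, unadjusted p = 0.0153, adjusted p = 0.999). The bile acid carrier SLC10A1 was at 38.5, 25.9 and 22.2 CPM with BHB, against 39, 74.5 and 30.8 CPM in controls (-0.73, SE 0.34). Its difference came mostly from pair 2 (-1.51), and without control library 2 the log2 fold change was -0.27. SLC10A3, a relative with no established cargo, was at 16.8, 13.7 and 16.2 CPM against 11.4, 7.82 and 13.2 CPM (0.53, SE 0.25), and SLC17A1 had a log2 fold change of 0.77 (SE 0.45).

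Ion carriers were the cargo group with the highest share of positive members, 14 of 26 (median log2 fold change 0.04). In the SLC12A family, carriers such as SLC12A2 couple the movement of potassium, sodium and chloride and help set cell volume. That role is not taken to hold for every member, SLC12A8 among them. All 6 tested members were positive under each of the 3 scalings tried, which use the same libraries. With TMM 49.1% of all tested genes were positive. Signs were counted in every family of 4 or more tested members, and only in SLC12A were all positive. The 6 members ran from 0.10 to 0.90 with TMM. Of them 4 were higher in 3 of 3 pairs, beside 14.5% of all tested genes. None passed the test. SLC12A8 was at 10.4, 8.45 and 10.7 CPM with BHB, against 4.01, 6.76 and 5.05 CPM in controls (0.90, SE 0.30, unadjusted p = 0.0137, adjusted p = 0.999). SLC12A2, the sodium-potassium-chloride importer NKCC1, had a log2 fold change of 0.10 (SE 0.29), with pair differences of 0.17, 0.69 and -0.32, so its BHB library was lower in pair 3.

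The sodium bicarbonate carrier SLC4A5 went the other way, at 19.8, 13.3 and 18.5 CPM with BHB, against 39, 25.7 and 22 CPM in controls (log2 fold change -0.75, SE 0.26, unadjusted p = 0.0182, adjusted p = 0.999). Groups did not overlap, and the pair differences were -0.96, -0.93 and -0.24. The phosphate importers gave 552 ± 27.7 CPM with BHB and 576 ± 19.8 CPM in controls for SLC20A1 (-0.06, SE 0.12), and 207 ± 88.9 and 272 ± 94.8 CPM for SLC34A2 (-0.39, SE 0.34; SD, n = 3 each). SLC9A3R1, the scaffold, was at 752, 479 and 493 CPM with BHB, against 461, 383 and 655 CPM in controls (0.20, SE 0.23). SLC4A1AP had 61.4, 68.8 and 63.3 CPM against 56.8, 55.9 and 56.5 CPM (0.19, SE 0.13).

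Of 12 tested sugar carriers 5 were positive with TMM, and 0 had an unadjusted p under 0.05 in edgeR without pairs. In the SLC2A family 4 of 8 were positive with TMM and 6 of 8 when scaled by library totals alone. SLC2A9 was lower in 3 of 3 pairs, by -0.92, -0.27 and -0.02 on the log2 scale, so pair 3 hardly differed. With the pair in edgeR's model SLC2A9 had an unadjusted p of 0.0246 (adjusted p = 0.549). SLC2A1 (GLUT1), a glucose importer of most cells, was at 312, 227 and 178 CPM with BHB, against 263, 235 and 201 CPM in controls. The groups overlapped, and the log2 fold change was 0.04 with a 95% interval of -0.42 to 0.50. SLC2A3 (GLUT3), a high-affinity glucose importer, was at 3004, 2607 and 2183 CPM with BHB, against 2057, 3409 and 2405 CPM in controls (-0.01, 95% interval -0.47 to 0.44). SLC2A8 (GLUT8) averaged 39.7 ± 3.23 CPM with BHB and 34.9 ± 10.8 CPM in controls (SD, n = 3 each; 0.18, SE 0.22), and SLC2A10 had 26, 17 and 21 counts against 15, 23 and 9 (0.55, SE 0.47).

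Vitamin and nucleoside carriers had 4 members lower and 0 higher in 3 of 3 pairs among 12 tested. The shares over all tested genes were 15.7% and 14.5%. SLC23A1, which imports vitamin C with sodium, was at 22.6, 12.05 and 9.92 CPM with BHB, against 47.2, 25.6 and 13.03 CPM in controls (log2 fold change -0.94, SE 0.46). Pair differences were -1.04, -1.06 and -0.38, and within pairs the unadjusted p of edgeR was 0.00127, with an adjusted p of 0.289 (0.193 in DESeq2). Control library 1 weighs on the unpaired value, which was -0.37 without it. SLC5A6, the importer of biotin and pantothenate, was at 115, 107 and 82.9 CPM against 137, 111 and 104 CPM (-0.21, SE 0.17), and the nucleoside carrier SLC29A2 at 33.7, 25.9 and 21.2 CPM against 38.7, 34.3 and 28.1 CPM (-0.32, SE 0.22). The folate importer SLC46A1 had a log2 fold change of 0.08 (SE 0.47).

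Lipid and choline carriers had 8 of 9 members negative with TMM, where 49.1% of all tested genes were positive. Some of these were small, such as SLC44A2 (-0.02) and SLC27A1 (-0.07). Signs of the whole group were not counted with library totals alone. In 3 of 3 pairs 3 members were lower, beside 15.7% of all tested genes. SLC44A4, of the family of choline carriers, was at 39.7, 41.8 and 24.2 CPM with BHB, against 65.3, 57.8 and 32.1 CPM in controls (log2 fold change -0.55, SE 0.29; with the pair in edgeR's model unadjusted p = 0.00371, adjusted p = 0.378). SLC44A1, the choline importer of most cells, averaged 44.6 ± 7.38 CPM with BHB and 48.4 ± 2.74 CPM in controls (-0.12, SE 0.17; SD, n = 3 each). All 5 SLC44A genes were negative with TMM and 4 of 5 when scaled by library totals alone. Signs were counted in every family of 4 or more tested members, and only in SLC44A were all negative with TMM. The fatty acid carrier SLC27A4 was at 0.19 (SE 0.22) in log2 fold change. SLC27A5, with 14, 4 and 7 counts against 17, 16 and 11, was at -0.70 (SE 0.55).

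Carriers of the secretory pathway had 7 of 9 members negative with TMM, where 49.1% of all tested genes were positive. Some of these were small, such as SLC37A1 (-0.01), SLC33A1 (-0.06) and SLC35A2 (-0.07). Signs of this group were not counted with library totals alone. SLC37A3 was at 145, 126 and 102 CPM with BHB, against 175, 150 and 119 CPM in controls, lower in each pair by nearly the same amount (-0.27, -0.25 and -0.22), with an adjusted p of 0.590 within pairs in edgeR. SLC37A4, the glucose 6-phosphate carrier of the endoplasmic reticulum, gave a log2 fold change of -0.32 (SE 0.30), and SLC35A1, which brings activated sialic acid into the Golgi, of 0.36 (SE 0.41).

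**Figure D4:**
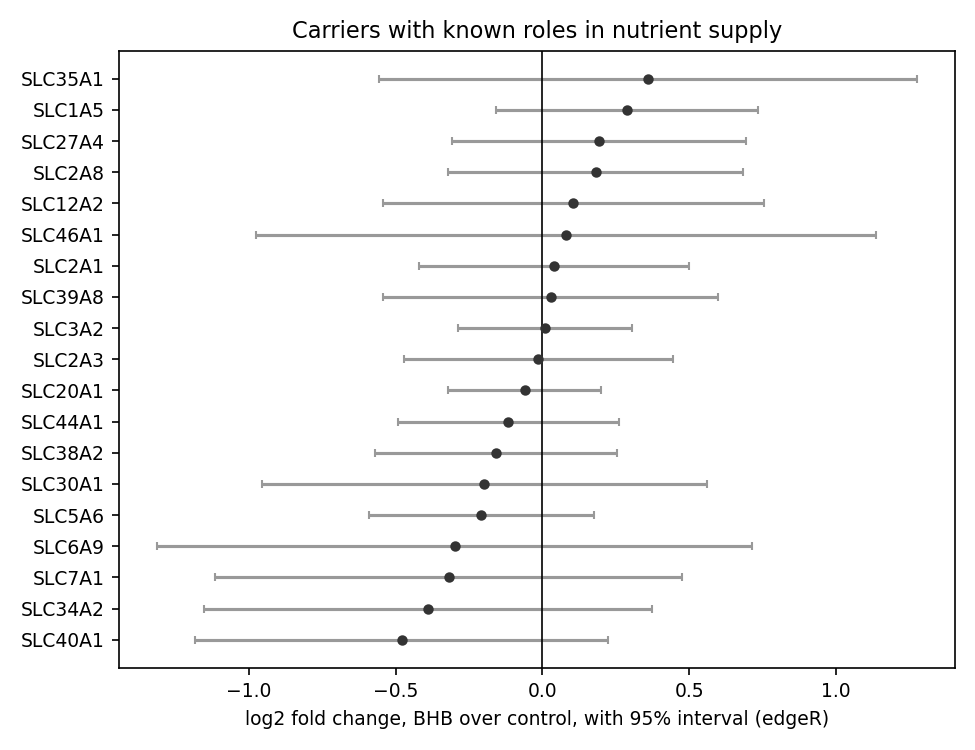
Log2 fold change of BHB over control with its 95% interval from edgeR for 19 carriers of known cargo that were named for their function. Each interval includes 0; the narrowest belong to SLC20A1 and SLC3A2, and the widest to SLC46A1 and SLC6A9.

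More members were called between pairs of libraries than between treatments. With treatment in the model, edgeR called 10 of 159 members between pairs (6.29%), beside 4.12% of all tested genes. They were SLC23A1 (adjusted p = 0.0169), SLC1A3 (0.0209), SLC15A1 (0.0209), SLC34A2 (0.0225), SLC46A1 (0.0289), SLC2A9 (0.0292), SLC11A2 (0.0351), SLC44A4 (0.0354), SLC40A1 (0.0357) and SLC39A11 (0.04995). DESeq2's likelihood ratio test called 14, which included these 10, beside 5.48% of all genes. Without control library 1, 4 members were called (3 of the 10), without control library 3 there were 16 (8 of the 10) and without BHB library 3 there were 21 (10 of the 10), beside 2.35%, 5.98% and 8.41% of all genes.

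Pair 1 was highest in mean CPM for 8 of these 10 genes. SLC46A1, the proton-coupled folate importer, was at 19.5, 8.45 and 6.27 CPM in BHB libraries 1 to 3, against 17, 8.35 and 7.16 CPM in control libraries 1 to 3. SLC15A1, the importer of small peptides (PEPT1), was at 55.4, 25.5 and 24.1 CPM against 47.3, 24.1 and 28.4 CPM. In both genes the libraries of pair 1 lay above the other 4, and BHB and control overlapped. SLC39A11 (ZIP11) was at 44.9, 25.9 and 29.3 CPM against 37.5, 16.2 and 25.9 CPM, again with pair 1 highest (log2 fold change 0.33, SE 0.32). SLC34A2, the sodium-phosphate carrier of epithelial surfaces, was at 295, 211 and 117 CPM against 283, 361 and 172 CPM, and was set apart by the low level of pair 3.

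SLC1A3 and SLC2A9 had another order. SLC1A3 (a glutamate and aspartate importer) was lowest in pair 1, at 61.3, 91.8 and 104 CPM in BHB libraries, against 63.6, 104 and 125 CPM in controls (log2 fold change -0.19, SE 0.27). SLC2A9, known in humans as a carrier of urate, was highest in pair 2, at 267, 694 and 468 CPM against 507, 834 and 474 CPM (-0.35, SE 0.33).

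**Figure D5:**
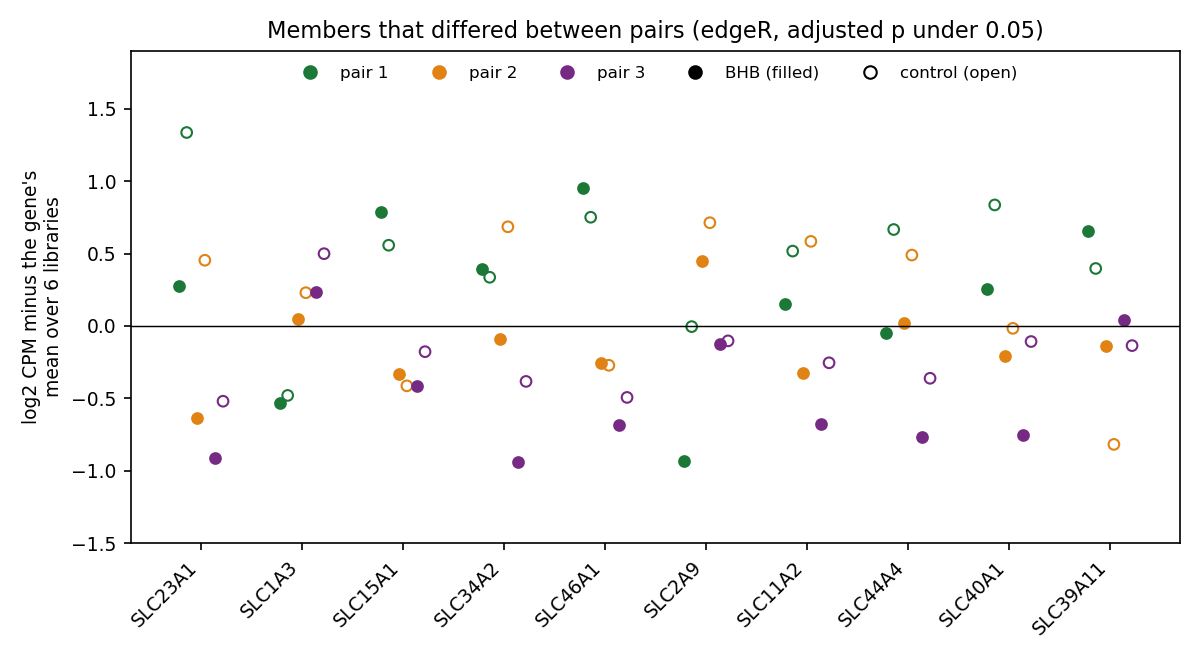
Log2 CPM of each library minus the gene's mean over the 6 libraries, for the 10 members that passed edgeR's test between pairs; colour marks the pair, filled points are BHB and open points control libraries. Pair 1 (green) is low for SLC1A3 and for the BHB library of SLC2A9, and pair 3 (purple) is low for SLC34A2, SLC11A2 and SLC44A4.

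Of the members listed in the authors' deposited table, 15 (9.38%) had an adjusted p under 0.05, beside 5.04% of its 12826 genes. By the refit that gives its p-values, that test compares a model of pair and treatment with one of neither, so a low p can come from either. Among the members, the smallest adjusted p-values in the authors' deposited table belonged to SLC11A2 (2.14e-06), SLC34A2 (3.48e-06), SLC23A1 (9.44e-06) and SLC2A9 (1.62e-05). All 10 members called between pairs were among the 15 of the authors' deposited table, and SLC7A8, SLC38A2, SLC7A4 and SLC10A1 were among the rest. SLC7A4 was at 404 ± 147 CPM with BHB and 440 ± 93.7 CPM in controls (SD, n = 3 each).

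Partner genes of the carriers were looked up from a list of 22: accessory chains, scaffolds, the sodium pump that makes the sodium gradient, kinases that switch ion carriers, and genes of iron and zinc handling. Of the 20 found under the names listed, 9 were positive and 11 negative (median log2 fold change -0.01). The scaffold SLC9A3R1 is counted with the members. In edgeR without pairs 0 passed or had an unadjusted p under 0.05, and with pairs 0 passed. With the pair in edgeR's model the unadjusted p was 0.0156 for PDZK1 and 0.0222 for BSG, both lower in each pair. Under 0.05 in that fit were 8.2% of all tested genes. Groups did not overlap for CLTRN (-0.51, SE 0.26) and HIF1A (-0.72, SE 0.44), both lower with BHB, beside 7.84% of all tested genes. PDZK1, a scaffold of carriers in epithelia, averaged 10.1 ± 3.33 CPM with BHB and 16.6 ± 7.37 CPM in controls (-0.72, SE 0.39). The sodium pump chain ATP1B1 had a log2 fold change of 0.25 (SE 0.31). For iron, the transferrin receptor gene TFRC and the ferritin gene FTH1 were at -0.06 (SE 0.17) and 0.07 (SE 0.20).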

How the data were processed

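RNA-seq libraries of 6 pools of day 7 blastocysts were used. Per the labels' protocols, polyadenylated RNA went into stranded libraries that were read as paired ends in 1 lane. The authors deposited whole-number counts per gene, not normalized, and a table of their own comparison holding log2 fold changes, test statistics (a score), p-values, adjusted p-values and a mean per gene on a linear signal scale. STAR, featureCounts and DESeq2 are named, per the submitters' processing notes; their versions, the genome build, the annotation and the strand setting: not given in the sources used here. In the deposited table the log2 fold change is control over BHB. The smallest gene total was 38 counts, and genes below that are not analysed here. Of 160 member names, 159 are symbols of the ARS-UCD2.0 gene table and 1 is an older symbol in it.

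Counts were normalized by TMM, filtered with filterByExpr (12732 genes kept, 94 removed) and tested with edgeR by quasi-likelihood F tests; p-values were adjusted by Benjamini-Hochberg at 0.05 over all tested genes (R 4.3.3, edgeR 4.0.16). The SE is the fold change divided by the square root of F. Alternatives used DESeq2 1.42.0 and voom of limma 3.58.1. The edgeR and DESeq2 tests were also run on counts simulated from edgeR's fitted model, which cannot show whether that model holds for these libraries. An adjusted p that DESeq2 withheld counts as none. Pair differences are of log2(CPM + 0.5). The labels give no replicate numbers; numbers follow the order of deposit. The pairing comes from a refit: DESeq2's likelihood ratio test of pair and treatment against neither gave 99.98% of the deposited p-values within 1e-06, and the other 5 pairings at most 0.398%. Deviations of paired libraries from their group means correlated at 0.46, 0.32 and 0.33 over genes. The fit without pairs is the main one, since the labels state none.

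Members, lists and tests were chosen with earlier results of these data known. Genes were named by a rule: members called; the 8 members with the smallest p in each direction whose mean log2 CPM is 1 or more; the 2 with the smallest p per cargo group; up to 10 called between pairs; and a set of 23, of which 19 are reported. Results for some genes are not reported here. Naming by level per coding length could not be applied, since no coding lengths were used here. Another 7 (SLC16A9, SLC30A6, SLC30A7, SLC36A4, SLC7A9, SLC13A2 and SLC7A4) were named after their values were seen.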

Additional observations from a re-analysis of the deposited data

How the results depend on the processing

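No member passed edgeR's test under any scaling, any filter on low counts or without any single library; the 1 call came from DESeq2 with the replicate block (1 member, SLC11A2), which was lost without any pair. Over all genes 0 were called, against 6 by DESeq2 without pairs, and 35 by DESeq2 with the replicate block; leaving out 1 library gave 0 to 1 in edgeR, and leaving out 1 pair gave 12 to 15 in DESeq2 with the replicate block. The count of members with groups that do not overlap was 15, and 23 to 44 with 1 library left out. The members' median log2 fold change was -0.07, -0.0011 with library totals alone (0.06 for all genes) and -0.14 to -0.034 with 1 library or pair left out. Between pairs 10 members were called, 4 to 21 with 1 library left out, an alternative chosen after seeing the data, as were those for the direction within pairs. The other pairings gave 0.398%, 0.0624%, 0.0468%, 0% and 0% of the deposited p-values.

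Of 54 named members 39 kept their direction in every alternative. SLC20A1 turned to 0.0051 with library totals alone, and SLC2A3 (-0.01) to 0.052 with library totals alone, 0.0069 in limma-voom, 0.0052 in edgeR with the replicate block and 0.00089 in DESeq2 with it. With 1 library left out of edgeR's fit, or 1 pair out of DESeq2's with the replicate block, the log2 fold change ran from -0.12 to 0.48 for SLC12A2, -0.42 to 0.41 for SLC15A1, -0.42 to 0.033 for SLC1A3, -0.010 to 0.30 for SLC27A4, -0.20 to 0.21 for SLC2A1, -0.27 to 0.22 for SLC2A3, -0.59 to 0.28 for SLC30A1, -0.22 to 0.20 for SLC39A8, -0.061 to 0.073 for SLC3A2, -0.55 to 0.56 for SLC46A1, -0.59 to 0.064 for SLC6A9, -0.60 to 0.048 for SLC7A1, -0.45 to 0.083 for SLC7A4 and -0.049 to 0.51 for SLC9A3R1. Without turning sign, the same range was -1.25 to -0.31 for SLC27A5, 0.21 to 1.16 for SLC2A10, -0.72 to -0.04 for SLC2A9, -0.73 to -0.11 for SLC34A2 and 0.06 to 0.66 for SLC39A11. The cause was not tested. DESeq2 and limma-voom give no count of their own of groups that do not overlap. With 3 libraries a group and a median SE of 0.29, depth and number limit what could be detected, most of all in the 42 members under 5 CPM in both groups.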
